A study of Homo sapiens with 9 samples.

Results

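The genes that carry glucose into the cell and through glycolysis, lactate export, gluconeogenesis and glycogen turnover were followed in A498 cells, a VHL-deficient clear cell renal cell carcinoma (ccRCC) line, after depletion of ARNT or of BMAL1. The set held 39 genes, taken by gene name from the 27673 genes of the count table, and 38 of them were among the 15551 genes with enough reads to be tested. In all, 3 groups of 3 libraries were sequenced: cells with a control hairpin (shControl), cells with a hairpin against BMAL1 (shBMAL1, whose transcript is listed under its older symbol, ARNTL) and cells with a hairpin against ARNT (shARNT). All 9 were made by lentiviral infection with a pLKO.1 vector and puromycin selection, were grown in medium with serum, and used 1 hairpin per target, so the effect of a hairpin and of its target cannot be told apart. The labels call the libraries of a group biological replicates and do not say how the cultures were separated, so p-values measure the spread between these libraries.

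Glycolysis splits glucose into pyruvate, which is either reduced to lactate and exported or passed to mitochondria, and most of its steps can be run by several isozymes with different kinetics. Hypoxia-inducible factors pair with ARNT and bind short DNA motifs beside many of these genes, and in ccRCC the loss of VHL keeps HIF2α stable without hypoxia. BMAL1 is a relative of ARNT best known as a component of the circadian clock, and the study asks which transcripts depend on either partner.

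The targeted transcripts were lowest in their own groups. ARNT stood at 50.5 ± 2.24 CPM (counts scaled to library size with TMM factors; mean ± SD, n = 3) in shControl, 32.3 ± 1.52 in shBMAL1 and 9.47 ± 0.432 in shARNT. ARNTL stood at 16.3 ± 0.395, 5.02 ± 0.789 and 23.8 ± 1.31 CPM in the same order. ARNT was thus also lower in shBMAL1 than in shControl, and ARNTL was higher in shARNT. The transcript of HIF2α, EPAS1, was lower in both depletions. It was at 345 ± 18.7 CPM in shControl, 233 ± 18.8 in shBMAL1 and 74.3 ± 3.41 in shARNT. HIF1A was higher in both (140 ± 6.79, 421 ± 13.8 and 390 ± 17.2 CPM). The part of these partner transcripts in the differences given here was not tested. Library totals ranged from 35269851 to 36099075 counts. Of 9 markers of kidney tubule and renal carcinoma all passed the filter, but NDUFA4L2, which is abundant in many ccRCC tumours, was at only 0.413 ± 0.0960 CPM in shControl, and the markers moved with the groups: 7 of the 9 were lower and 1 higher in shARNT, where 41.3% of all genes tested were lower and 40.5% higher, and 8 were lower and 1 higher in shBMAL1, against 31.5% and 31.9%. VIM was at 5974 ± 28.6 CPM in shControl and 812 ± 28.6 in shARNT, and PAX8, a renal lineage factor, was at 35.98 ± 1.92 and 100.3 ± 5.65. Of 7 markers of blood, endothelium, fibroblasts and liver, 6 did not pass the filter and the seventh, ALB, stayed at or below 0.896 CPM on average in every group. In bulk RNA, fewer cells of a kind and less RNA per cell cannot be told apart.

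Most members were lower after depletion of ARNT, whereas depletion of BMAL1 came with changes in both directions. The whole set took 2.09% ± 0.0250 of all counts in shControl, 2.04% ± 0.0168 in shBMAL1 and 1.69% ± 0.0165 in shARNT. In shARNT, 23 of the 38 tested members were lower than in shControl and 9 were higher at an adjusted p under 0.1 (edgeR's quasi-likelihood test, Benjamini-Hochberg adjustment over all genes tested). Over all genes tested, 41.3% were lower and 40.5% higher in that comparison. The median log2 fold change of the members was -0.64, against -0.01 for all genes. When a change of more than 1.5-fold was required, 19 members were lower and 4 higher, against 24.8% and 20% of all genes. In shBMAL1, 17 members were lower and 11 higher, against 31.5% and 31.9% of all genes, with a median of 0.01. There, 4 members in each direction (10.5% each) exceeded 1.5-fold, against 6.97% and 6.6% of all genes. Set directly against shBMAL1, shARNT had 24 members lower and 9 higher, against 41.1% and 40.1% of all genes, with 16 and 4 past 1.5-fold, against 24.5% and 19.4%. The share of members lower in shARNT (60.5%) was thus above the share of all genes, and the share higher (23.7%) was below it. In shBMAL1 the share lower (44.7%) was also above that of all genes, and the share higher (28.9%) was slightly below it. Without scaling for composition, by library size alone, the median of all genes in shARNT moved to 0.23 against shControl and 0.18 against shBMAL1, and the members then split into 21 lower and 15 higher against shControl and 22 lower and 15 higher against shBMAL1. Both depletions are compared with the same 3 control libraries, so their values against shControl are not independent.

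**Figure D1:**
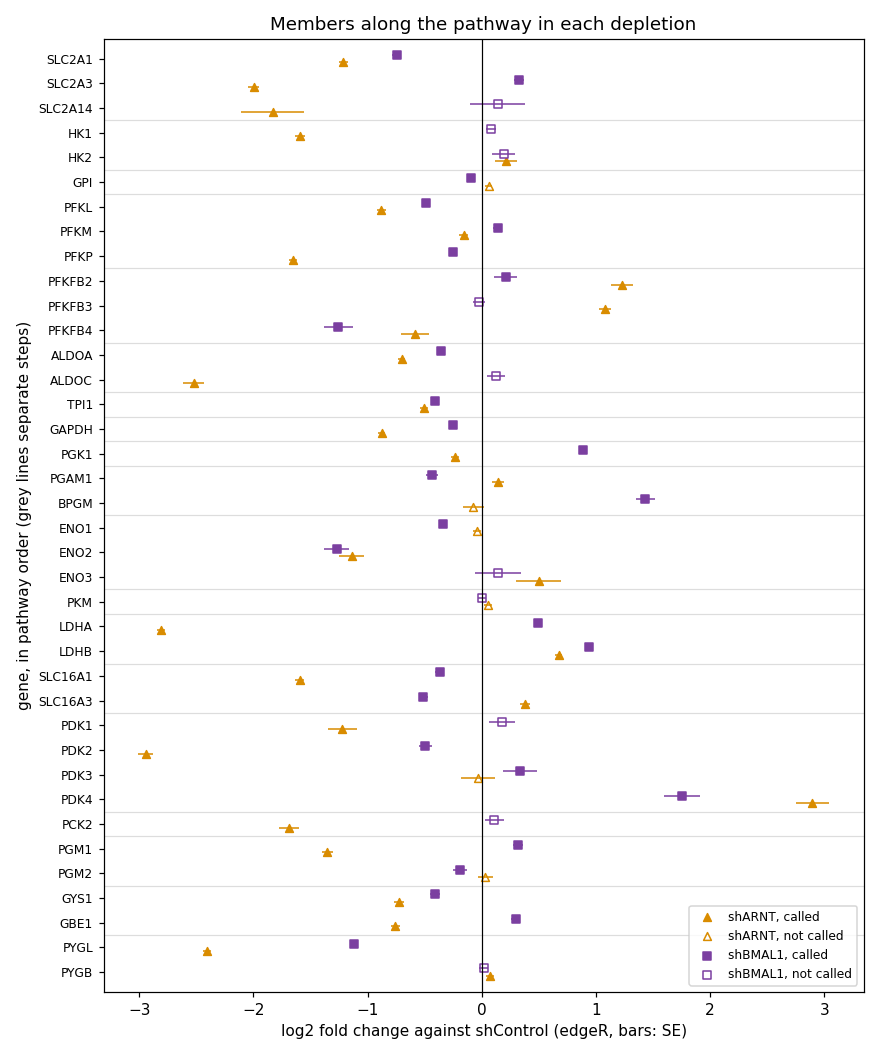
log2 fold change of the 38 tested members against shControl in shARNT (triangles) and shBMAL1 (squares), with standard errors and in pathway order. Filled symbols passed an adjusted p of 0.1. LDHA and PDK2 lie furthest to the left in shARNT, at -2.81 and -2.94, and PDK4 furthest to the right in both depletions.

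The promoters of 6 members are printed because their genes mark some of the contrasts described below. LDHA and PYGL fell in shARNT while their partners LDHB and PYGB did not. ALDOC fell more than ALDOA, and PGK1 moved far more in shBMAL1 than in shARNT. Each window runs from 250 bases before to 50 bases after the first start listed for the gene by RefSeq on GRCh38.p14. It holds 300 bases on the strand of the gene. Capitals mark the hypoxia response element core ACGTG or its variant GCGTG on either strand (CACGT and CACGC when read on the other), and CACGTG is the E-box, which holds ACGTG on both strands.
LDHA, chr11:18394313-18394612, forward strand: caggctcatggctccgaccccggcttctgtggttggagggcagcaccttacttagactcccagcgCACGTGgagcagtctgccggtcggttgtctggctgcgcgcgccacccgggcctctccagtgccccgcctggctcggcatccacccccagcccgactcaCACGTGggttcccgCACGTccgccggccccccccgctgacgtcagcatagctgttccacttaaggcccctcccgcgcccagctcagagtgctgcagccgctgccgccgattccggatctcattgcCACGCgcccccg
LDHB, chr12:21657793-21658092, reverse strand: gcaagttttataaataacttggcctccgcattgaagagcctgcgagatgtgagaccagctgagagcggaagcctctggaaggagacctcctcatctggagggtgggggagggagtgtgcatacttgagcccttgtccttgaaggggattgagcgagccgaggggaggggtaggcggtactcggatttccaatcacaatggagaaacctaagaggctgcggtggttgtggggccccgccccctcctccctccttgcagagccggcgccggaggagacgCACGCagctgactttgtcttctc
ALDOC, chr17:28576846-28577145, reverse strand: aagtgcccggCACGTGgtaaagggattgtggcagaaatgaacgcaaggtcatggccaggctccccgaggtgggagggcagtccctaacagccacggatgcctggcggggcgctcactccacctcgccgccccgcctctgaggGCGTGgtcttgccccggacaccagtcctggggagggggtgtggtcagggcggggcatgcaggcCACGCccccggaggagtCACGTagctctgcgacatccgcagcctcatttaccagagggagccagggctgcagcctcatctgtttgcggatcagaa
PGK1, chrX:78103998-78104297, forward strand: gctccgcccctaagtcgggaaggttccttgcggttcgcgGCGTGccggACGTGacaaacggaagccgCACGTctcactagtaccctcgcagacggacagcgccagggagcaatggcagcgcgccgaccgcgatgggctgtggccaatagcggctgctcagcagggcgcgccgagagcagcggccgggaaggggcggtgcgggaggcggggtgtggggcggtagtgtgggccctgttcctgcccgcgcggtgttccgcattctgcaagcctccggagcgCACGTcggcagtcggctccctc
PYGL, chr14:50944434-50944733, reverse strand: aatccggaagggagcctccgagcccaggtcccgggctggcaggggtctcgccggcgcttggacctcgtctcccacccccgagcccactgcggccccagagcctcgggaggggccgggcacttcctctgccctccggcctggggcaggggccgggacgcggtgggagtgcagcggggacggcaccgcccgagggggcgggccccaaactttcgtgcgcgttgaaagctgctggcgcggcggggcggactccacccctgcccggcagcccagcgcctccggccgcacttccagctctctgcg
PYGB, chr20:25247835-25248134, forward strand: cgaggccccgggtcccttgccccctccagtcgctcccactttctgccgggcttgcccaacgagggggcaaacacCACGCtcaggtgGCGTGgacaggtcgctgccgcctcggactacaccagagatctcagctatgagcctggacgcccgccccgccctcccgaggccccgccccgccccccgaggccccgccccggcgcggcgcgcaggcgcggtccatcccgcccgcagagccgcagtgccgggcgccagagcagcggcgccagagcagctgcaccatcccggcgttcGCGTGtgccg

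LDHA carries 4 marked stretches, 2 of them E-boxes, and LDHB carries 1. ALDOC carries 4 with 1 E-box, PGK1 carries 4 with none, PYGB carries 3, and PYGL has no match in its window. Of members not printed, ALDOA carries 1. PDK2 and PDK4, the pair whose ratio moved most in shARNT, have no match. A promoter was found for 36 of the 39 members (not for SLC2A3, PFKFB2 and SLC16A1). Of all 35116 promoters of this length in the table, 48.4% hold ACGTG or GCGTG and 7.26% hold CACGTG. Among members that were lower in shARNT by at least 1 on the log2 scale, 5 of 12 hold ACGTG or GCGTG, and among the other tested members 18 of 23 do. The members of the first group with none in these windows are HK1, PFKP, PDK1, PDK2, PCK2, PGM1 and PYGL. A match is a description of these letters only, other starts and distal elements were not searched, and binding was not measured in these libraries.

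Glucose enters through facilitative transporters. SLC2A1, which encodes GLUT1, was the main one per length, with 87.6% of the summed level of the 3 members per kilobase of exon in shControl. Its CPM were 581, 576 and 576 in shControl, 329, 344 and 362 in shBMAL1, and 241, 247 and 259.9 in shARNT. The groups did not overlap, and both depletions were below the control. The change in log2 units was -1.21 ± 0.0408 (standard error, SE; adjusted p = 3.27e-16) in shARNT and -0.74 ± 0.0404 (adjusted p = 4.49e-12) in shBMAL1.

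SLC2A3, the high-affinity transporter GLUT3, did not follow GLUT1. It was at 87.6, 87.5 and 85.9 CPM in shControl, 107, 108 and 113 in shBMAL1, and 21.3, 22.8 and 21.2 in shARNT. It was thus lowest in shARNT and highest in shBMAL1, with log2 fold changes of -2.00 ± 0.0501 and 0.33 ± 0.0456 (adjusted p = 2.68e-18 and 3.81e-06). The ratio of SLC2A3 to SLC2A1 counts went from 0.151 ± 0.00149 in shControl to 0.317 ± 0.00671 in shBMAL1 and 0.0875 ± 0.00530 in shARNT. SLC2A14, a neighbouring near-identical copy of SLC2A3, was counted at 1.71, 2.04 and 2.30 CPM in shControl, 2.28, 2.03 and 2.35 in shBMAL1, and 0.833, 0.329 and 0.529 in shARNT. Its log2 fold change was -1.83 ± 0.278 in shARNT and 0.14 ± 0.239 in shBMAL1 (adjusted p = 5.22e-06 and 0.640). Since the handling of reads that map to both is not stated, these values of the pair are uncertain.

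Hexokinase traps glucose as glucose 6-phosphate. Of HK1 and HK2, HK1 was the main one, at 94.0% of their summed level per kilobase in shControl. That sum leaves out HKDC1, a hexokinase-like gene outside the member list. HKDC1 was at 107 ± 6.86 CPM in shControl, 111 ± 1.91 in shBMAL1 and 235 ± 10.4 in shARNT, where it was above HK1. HK1 was at 237, 222 and 239 CPM in shControl, 245, 241 and 251 in shBMAL1, and 73.1, 76.9 and 80.9 in shARNT. Every shARNT library was below every other library, with a log2 fold change of -1.60 ± 0.0450 (adjusted p = 1.86e-17). The shBMAL1 difference of HK1 was 0.08 ± 0.0430 (adjusted p = 0.117). It passed the threshold by library size alone (0.13, adjusted p = 0.0145) and with the replicate block (adjusted p = 0.0922). It also passed without shARNT library 1 or 3 (adjusted p = 0.0983 and 0.0957). HK2, often raised in tumours, was at 13.8, 12.1 and 12.5 CPM in shControl, 16.3, 13.96 and 13.6 in shBMAL1, and 12.98, 15.6 and 15.9 in shARNT, and its call as higher in shARNT (0.21 ± 0.0969, adjusted p = 0.0514) came with overlapping groups. That call was lost without any one of control library 2 or 3 or shARNT library 2 or 3, with adjusted p up to 0.182. In shBMAL1 the HK2 difference was 0.19 ± 0.0980 and not called (adjusted p = 0.103). It was called by library size alone (adjusted p = 0.0447) and with the 6 libraries compared (0.0978). Leaving out control library 1, shBMAL1 library 3 or shARNT library 1 also gave a call (0.0593, 0.0673 and 0.0764). The count ratio of HK2 to HK1 was 0.0551 ± 0.00304 in shControl, 0.0595 ± 0.00614 in shBMAL1 and 0.193 ± 0.0132 in shARNT.

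GPI, which isomerises glucose 6-phosphate, was at 594 ± 3.93, 558 ± 9.97 and 619 ± 7.30 CPM. It was called lower in shBMAL1 (-0.09 ± 0.0327, adjusted p = 0.0218) and was not called in shARNT (0.06 ± 0.0326, adjusted p = 0.1002). Neither statement held under every setting: the shBMAL1 call was lost by library size alone (adjusted p = 0.256), and GPI was called higher in shARNT with RLE factors (adjusted p = 0.0818), DESeq2 (adjusted p = 0.0675) and library size alone (0.30, adjusted p = 4.72e-08).

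Phosphofructokinase commits the sugar to glycolysis. PFKP, the platelet isozyme, held 67.8% of the step per kilobase in shControl. Its CPM were 1341, 1313 and 1358 in shControl, 1117, 1128 and 1117 in shBMAL1, and 419, 419 and 437 in shARNT. The log2 difference was -1.65 ± 0.0333 in shARNT and -0.26 ± 0.0324 in shBMAL1 (adjusted p = 9.63e-20 and 1.15e-06), so the fall was 3.15-fold in the first and 1.19-fold in the second. PFKL, the liver isozyme, was at 503, 494 and 475 CPM in shControl, 341, 354 and 353 in shBMAL1, and 266, 267 and 267 in shARNT. It too was lower in both and differed from shControl on the log2 scale by -0.88 ± 0.0356 in shARNT and -0.49 ± 0.0354 in shBMAL1 (adjusted p = 6.72e-15 and 3.59e-10). PFKM, the muscle isozyme, was at 198, 192 and 192 CPM in shControl, 207, 219 and 215 in shBMAL1, and 174, 167 and 179.6 in shARNT. Its log2 fold change was 0.14 ± 0.0401 in shBMAL1 (adjusted p = 0.00612), and its direction in shARNT depended on scaling, at -0.16 ± 0.0401 with TMM (adjusted p = 0.00120) and 0.08 by library size alone. The ratio of PFKP to PFKL counts was 2.73 ± 0.112 in shControl, 3.21 ± 0.0599 in shBMAL1 and 1.59 ± 0.0371 in shARNT, so PFKP fell more than PFKL in shARNT and less in shBMAL1.

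The PFKFB enzymes make and break fructose 2,6-bisphosphate, the activator of phosphofructokinase, and here the isozymes moved in different directions. PFKFB3, whose kinase activity dominates, was at 50.8, 51.9 and 51.4 CPM in shControl, 51.3, 46.8 and 53.1 in shBMAL1, and 109, 110.2 and 106 in shARNT. It was higher in every shARNT library than in any other (log2 fold change 1.08 ± 0.0501, adjusted p = 6.45e-14), and it stood 1.10 ± 0.0501 above shBMAL1. PFKFB2 was at 5.44, 5.68 and 5.45 CPM in shControl, 6.64, 6.39 and 6.12 in shBMAL1, and 13.1, 12.97 and 12.8 in shARNT, a log2 fold change of 1.23 ± 0.0956 in shARNT (adjusted p = 2.77e-10). Its call in shBMAL1 (0.21 ± 0.102, adjusted p = 0.0872) was lost in 8 of 9 fits that left out 1 library and in DESeq2 (adjusted p = 0.155).

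PFKFB4 was lower in both depletions, and more so in shBMAL1. Its CPM were 15.98, 17.04 and 16.1 in shControl, 7.14, 8.51 and 4.91 in shBMAL1, and 11.1, 10.8 and 10.9 in shARNT. Its log2 fold change was -1.26 ± 0.129 in shBMAL1 (adjusted p = 6.16e-08) and -0.59 ± 0.122 in shARNT (adjusted p = 0.000199), and the direct contrast was 0.67 ± 0.130 (adjusted p = 0.000104). The shBMAL1 libraries spread over a wider range than the others.

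Aldolase was dominated by ALDOA, with 98.5% of the step per kilobase in shControl, and ALDOA was at 3976, 4038 and 3896 CPM in shControl, 3155, 3176 and 2974 in shBMAL1, and 2450.3, 2458 and 2411 in shARNT. It was lower in both depletions and differed from shControl on the log2 scale by -0.70 ± 0.0326 in shARNT and -0.36 ± 0.0325 in shBMAL1 (adjusted p = 6.27e-14 and 1.20e-08). The minor isozyme ALDOC, best known from brain, changed most. It was at 42.6, 40.6 and 42.2 CPM in shControl, 48.5, 46.6 and 41.6 in shBMAL1, and 5.96, 8.39 and 7.46 in shARNT. The fall in shARNT was 5.75-fold (log2 fold change -2.52 ± 0.0908, adjusted p = 1.01e-15), and the shBMAL1 libraries overlapped the control (0.12 ± 0.0775, adjusted p = 0.179).

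The 2 single-gene steps that follow were lower in both depletions. TPI1, triose phosphate isomerase, was at 695 ± 12.97, 523 ± 6.66 and 489 ± 3.01 CPM, and its lower value in shARNT than in shBMAL1 (-0.10) turned to 0.09 by library size alone. GAPDH, commonly used as a reference gene, was at 3749 ± 39.3, 3156 ± 92.0 and 2041 ± 36.6 CPM, and differed from shControl on the log2 scale by -0.88 ± 0.0318 in shARNT and -0.25 ± 0.0316 in shBMAL1. GAPDH, PGAM1, LDHA, PKM, ENO1 and TPI1 have processed pseudogenes, so how reads shared with those copies were counted can affect their levels.

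PGK1, the first enzyme of glycolysis to yield ATP, separated the depletions. Its CPM were 1012, 1030.0 and 1015 in shControl, 1817, 1859.9 and 1963 in shBMAL1, and 853, 872 and 873 in shARNT. The shBMAL1 libraries were all higher than the rest, with a log2 fold change of 0.88 ± 0.0342 (1.84-fold, adjusted p = 2.63e-14). The shARNT difference from shControl was small, at -0.23 ± 0.0340 with TMM and 0.003 by library size alone, so no direction holds for it across scalings. The direct contrast was -1.12 ± 0.0343 (adjusted p = 7.48e-17).

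BPGM, which diverts the product of GAPDH to 2,3-bisphosphoglycerate, rose in shBMAL1. It was at 9.79, 8.81 and 9.48 CPM in shControl, 24.7, 25.8 and 25.3 in shBMAL1, and 8.03, 9.51 and 9.15 in shARNT. Its log2 fold change was 1.43 ± 0.0837 in shBMAL1 (adjusted p = 1.41e-11) and -0.07 ± 0.0888 in shARNT (adjusted p = 0.455). PGAM1, the mutase of the main path, was lower in shBMAL1 (44.4 ± 0.921 against 60.0 ± 2.83 CPM) and 66.2 ± 3.15 CPM in shARNT, where its call (0.14, adjusted p = 0.0182) was lost without shARNT library 3 (adjusted p = 0.102).

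Enolase was mostly ENO1, at 1434, 1416 and 1447 CPM in shControl, 1095, 1113 and 1193 in shBMAL1, and 1366, 1380.2 and 1429.9 in shARNT. ENO1 was lower in shBMAL1 (-0.34 ± 0.0358, adjusted p = 1.01e-07) and was not called in shARNT (-0.04 ± 0.0357 with TMM, adjusted p = 0.296, and 0.20 by library size alone). ENO2, the neuronal isozyme, was at 13.5, 16.8 and 13.9 CPM in shControl, 6.76, 6.10 and 5.44 in shBMAL1, and 6.87, 6.50 and 6.68 in shARNT. It was 2.41-fold lower in shBMAL1 and 2.20-fold lower in shARNT, and the depletions overlapped (difference 0.13 ± 0.116, adjusted p = 0.304). ENO3, the muscle isozyme, was low everywhere, at 2.55, 3.71 and 4.45 CPM in shControl, 4.45, 4.01 and 3.38 in shBMAL1, and 6.59, 4.30 and 4.26 in shARNT. Its call as higher in shARNT (0.50 ± 0.196, adjusted p = 0.0260) was lost without control library 1 or shARNT library 1 (adjusted p = 0.162 and 0.227). PKM, pyruvate kinase, was at 3171 ± 68.5, 3175 ± 55.1 and 3293 ± 81.7 CPM and was not called in either depletion (0.05 ± 0.0317 in shARNT, adjusted p = 0.122). It was called higher in shARNT with RLE factors (adjusted p = 0.0992), without shARNT library 1 (adjusted p = 0.0721) and by library size alone (0.29, adjusted p = 2.64e-08). Gene counts cannot separate its M1 and M2 splice forms.

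**Figure D2:**
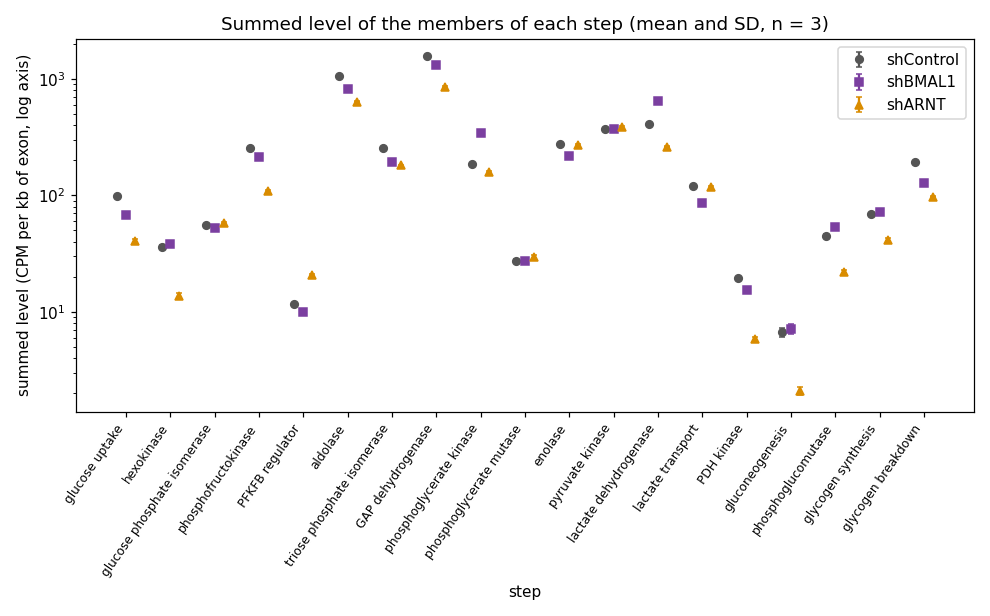
Summed level of the members of each step, in CPM per kilobase of exon on a log axis, as mean and SD of 3 libraries per group. In shARNT the hexokinase, phosphofructokinase and PDH kinase steps lie below both other groups. The enolase and lactate transport steps overlap shControl, and the pyruvate kinase step lies close to it. The hexokinase sum holds HK1 and HK2 and leaves out HKDC1, which is no member and was higher in shARNT.

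Lactate dehydrogenase exchanged its leading isozyme in shARNT. LDHA, which favours the reduction of pyruvate to lactate, was at 1613, 1560.4 and 1654 CPM in shControl, 2189, 2289.5 and 2316 in shBMAL1, and 229, 228 and 231 in shARNT. The shARNT libraries were 7.02-fold below the control (log2 fold change -2.81 ± 0.0364, adjusted p = 1.02e-22), and the shBMAL1 libraries were 1.41-fold above it (0.49 ± 0.0338, adjusted p = 1.63e-10). LDHB, which favours the reverse reaction, was at 411, 415 and 432 CPM in shControl, 802, 822 and 792 in shBMAL1, and 669, 662 and 674 in shARNT. It was higher in both depletions, by 0.94 ± 0.0341 in shBMAL1 (adjusted p = 9.88e-15) and by 0.67 ± 0.0340 in shARNT (adjusted p = 2.53e-13) on the log2 scale. The ratio of LDHA to LDHB counts was 3.84 ± 0.0788 in shControl, 2.81 ± 0.0990 in shBMAL1 and 0.343 ± 0.000897 in shARNT. Per kilobase of exon, LDHA held 65.5%, 58.2% and 14.5% of the step, or 72.5%, 65.9% and 19.1% with the length of the longest transcript. The summed level of both genes was higher in shBMAL1 (646 ± 12.2 CPM per kilobase) and lower in shARNT (262 ± 2.26) than in shControl (408 ± 10.9).

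Lactate leaves the cell through monocarboxylate transporters. SLC16A1 (MCT1) was at 256, 251 and 243 CPM in shControl, 191, 194 and 195 in shBMAL1, and 79.2, 82.1 and 86.6 in shARNT. It fell in both depletions, by 1.60 ± 0.0419 in shARNT and 0.37 ± 0.0405 in shBMAL1 on the log2 scale (adjusted p = 5.85e-18 and 1.56e-07). SLC16A3 (MCT4), typical of lactate-exporting cells, was at 736, 754 and 729.9 CPM in shControl, 496, 504 and 556 in shBMAL1, and 934, 962 and 989 in shARNT. Against shControl it rose in shARNT (0.38 ± 0.0407) and fell in shBMAL1 (-0.51 ± 0.0409), with a direct contrast of 0.89 ± 0.0411 (adjusted p = 4.48e-08, 1.58e-09 and 5.54e-14). The count ratio of SLC16A3 to SLC16A1 was 2.96 ± 0.0715 in shControl, 2.68 ± 0.141 in shBMAL1 and 11.6 ± 0.195 in shARNT.

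The pyruvate dehydrogenase kinases hold pyruvate back from the mitochondrial pyruvate dehydrogenase complex. PDK2, the most abundant of them in shControl, was at 100.4, 101 and 98.9 CPM in shControl, 71.0, 69.3 and 73.0 in shBMAL1, and 14.8, 11.9 and 12.3 in shARNT. The fall was 7.69-fold in shARNT (log2 fold change -2.94 ± 0.0661, adjusted p = 5.01e-19) and 1.41-fold in shBMAL1 (-0.49 ± 0.0576, adjusted p = 3.78e-07). PDK4, which is induced by fasting in many tissues, was at 1.53, 2.10 and 1.88 CPM in shControl, 7.11, 6.42 and 5.03 in shBMAL1, and 12.8, 14.6 and 13.7 in shARNT. It rose 7.44-fold in shARNT and 3.37-fold in shBMAL1 (adjusted p = 2.44e-13 and 7.95e-09), and the groups did not overlap. The ratio of PDK4 to PDK2 counts went from 0.0185 ± 0.00280 to 0.0874 ± 0.0163 in shBMAL1 and 1.07 ± 0.186 in shARNT. Per kilobase, PDK2 held 93.6% of the step in shControl, and in shARNT PDK4 and PDK2 were near each other, at 51.4% and 40.6% with the exon union and at 46.3% and 47.0% with the longest transcript, so which of them led depends on the length used.

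PDK1, a kinase known as a hypoxia-inducible gene, was a minor member here. It was at 9.82, 9.63 and 10.6 CPM in shControl, 12.4, 10.8 and 10.7 in shBMAL1, and 4.42, 4.98 and 3.48 in shARNT. Its log2 fold change in shARNT was -1.22 ± 0.123 (adjusted p = 1.61e-08), and the value in shBMAL1 was 0.18 ± 0.114 (adjusted p = 0.199). PDK3 was at 3.21, 3.04 and 3.39 CPM in shControl, 3.86, 3.80 and 4.50 in shBMAL1, and 3.41, 2.93 and 3.07 in shARNT. Its call as higher in shBMAL1 (0.33 ± 0.148, adjusted p = 0.0597) was lost without control library 2 or shBMAL1 library 3 (adjusted p = 0.149 and 0.202) and in DESeq2 (adjusted p = 0.102).

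**Figure D3:**
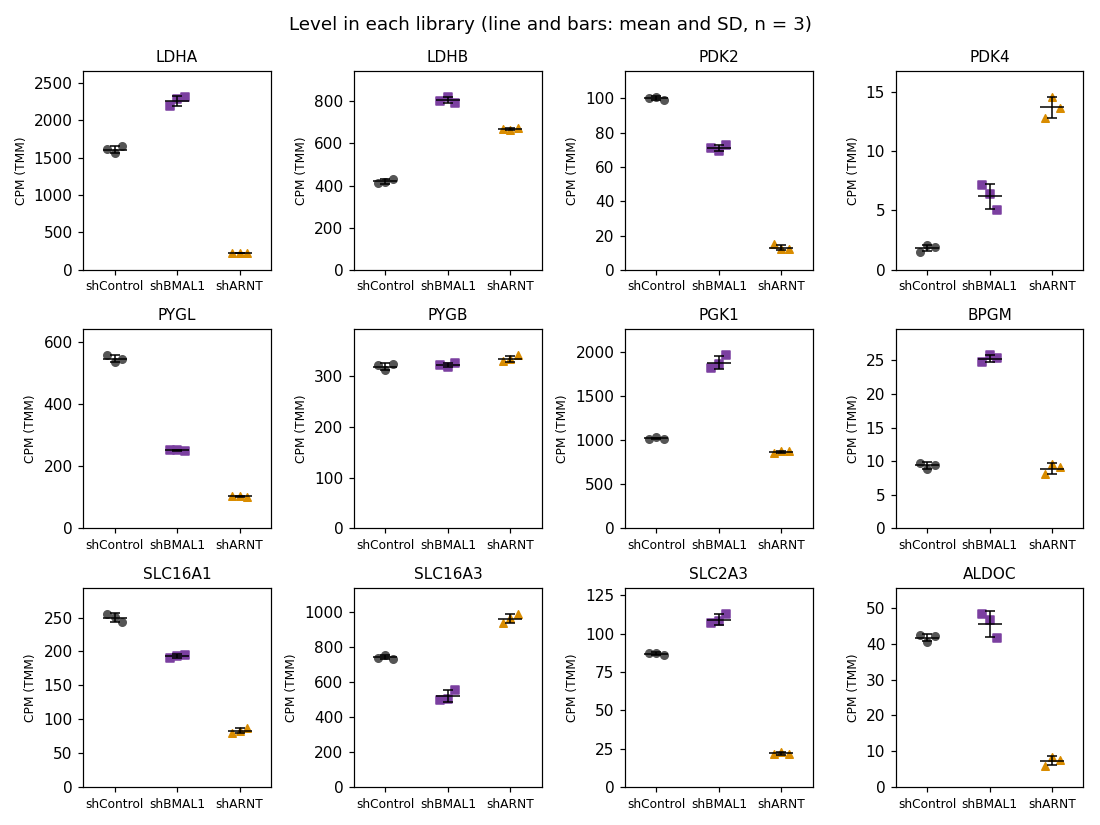
CPM of 12 members in each of the 9 libraries, with the mean and SD of each group (n = 3) and axes that start at 0. The shARNT libraries lie lowest for LDHA, PDK2, PYGL, SLC16A1, SLC2A3 and ALDOC and highest for PDK4 and SLC16A3, whereas PGK1 and BPGM stand out in shBMAL1.

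Of the 2 gluconeogenic members, 1 was near the limit of counting. FBP1, fructose 1,6-bisphosphatase, was counted 0, 1 and 0 times in shControl, 0 times in each shBMAL1 library, and 1, 3 and 3 times in shARNT, so it was at or below a floor of 3 counts per library and no fold is given. PCK2, the mitochondrial phosphoenolpyruvate carboxykinase, was measurable. It was at 30.6, 26.5 and 26.04 CPM in shControl, 26.8, 32.7 and 30.2 in shBMAL1, and 8.23, 8.29 and 9.27 in shARNT. It was 3.22-fold lower in shARNT (log2 fold change -1.69 ± 0.0898, adjusted p = 5.78e-13), and the shBMAL1 libraries overlapped the control (0.11 ± 0.0816, adjusted p = 0.269).

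Glycogen is built from glucose 1-phosphate, which phosphoglucomutase supplies. PGM1 was at 160.0, 153 and 154 CPM in shControl, 189.6, 187 and 206 in shBMAL1, and 58.7, 60.2 and 64.1 in shARNT. It was lower in shARNT (-1.35 ± 0.0477) and higher in shBMAL1 (0.32 ± 0.0457; adjusted p = 7.23e-16 and 5.79e-06). PGM2 was at 26.6, 25.7 and 24.8 CPM in shControl, 23.3, 21.8 and 22.5 in shBMAL1, and 25.4, 27.4 and 26.001 in shARNT, with a log2 fold change of -0.19 ± 0.0638 in shBMAL1 (adjusted p = 0.0157) and 0.03 ± 0.0625 in shARNT (adjusted p = 0.655). The ratio of PGM1 to PGM2 counts went from 6.06 ± 0.146 to 8.61 ± 0.503 in shBMAL1 and 2.32 ± 0.134 in shARNT. GYS1, glycogen synthase, was lower in both depletions (122 ± 4.89, 91.4 ± 0.920 and 73.5 ± 3.61 CPM). GBE1, the branching enzyme, was at 197, 185 and 188 CPM in shControl, 237, 231 and 232 in shBMAL1, and 111, 112 and 114 in shARNT. Its direct contrast was -1.05 ± 0.0393 (adjusted p = 1.78e-15).

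Glycogen phosphorylase releases the stored glucose, and its isozymes parted. PYGL, the liver isozyme, was at 559, 536 and 546 CPM in shControl, 254, 253 and 249.6 in shBMAL1, and 103, 103 and 102 in shARNT. It was 5.31-fold lower in shARNT and 2.17-fold lower in shBMAL1 (adjusted p = 1.07e-21 and 1.09e-15), with no overlap between any of the groups. PYGB, the brain isozyme, was at 321, 311 and 324 CPM in shControl, 323, 317 and 326 in shBMAL1, and 329, 333 and 341 in shARNT. Its difference in shARNT was 0.07 ± 0.0351 (adjusted p = 0.0742), and that call was lost in 4 of the 9 fits that left out 1 library and when only the 6 libraries compared were used (adjusted p = 0.128). The ratio of PYGL to PYGB counts went from 1.72 ± 0.0279 to 0.783 ± 0.0161 in shBMAL1 and 0.308 ± 0.00724 in shARNT. Per kilobase of exon, PYGL held 62.7%, 43.4% and 23.2% of the step, and with the longest transcript 71.6%, 53.5% and 31.2%, so the leading isozyme in shBMAL1 depends on the length used.

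**Figure D4:**
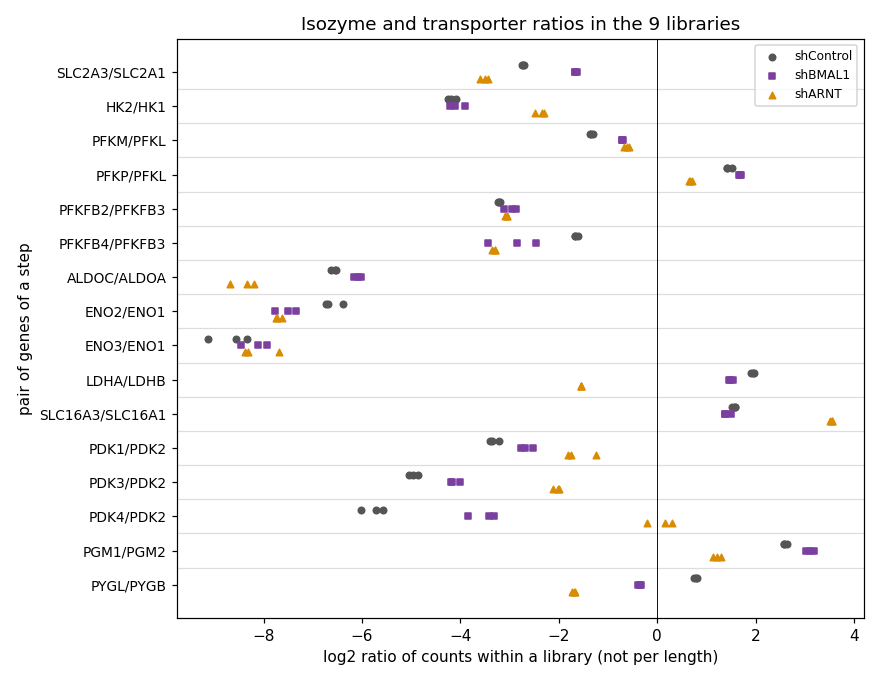
log2 ratio of the counts of paired genes within each of the 9 libraries, which does not depend on the scaling between libraries. LDHA/LDHB and PYGL/PYGB are above 0 in shControl and below 0 in shARNT, and PDK4/PDK2 runs from below -5 in shControl to about 0 in shARNT.

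The balance within steps was compared over 16 pairs of genes by their log2 count ratios. In shARNT, 15 of the 16 pairs did not overlap with shControl, in shBMAL1 14 did not, and between the depletions 12 did not. Calls of single genes at an adjusted p under 0.1 are a different measure. By it, 41.3% of all genes tested were lower and 40.5% higher in shARNT. The shares were 31.5% and 31.9% in shBMAL1, and 41.1% and 40.1% between the depletions. Overlap was not counted over all genes and other pairs were not examined, so nothing particular to these pairs is read from the counts. An exact two-sided permutation test of 3 libraries against 3 cannot go below p = 0.1, and this was the value of each non-overlapping pair, with adjusted p over the 16 pairs of at least 0.107, 0.114 and 0.133. The log2 ratio of PDK4 to PDK2 moved most in shARNT, by 5.85 ± 0.2002, and that of LDHA to LDHB next, by -3.48 ± 0.0172. In shBMAL1 the ratio of PDK4 to PDK2 again moved most, by 2.23 ± 0.209. ENO3/ENO1 overlapped in all 3 comparisons.

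Other genes of glucose handling, a list of 67 of which 50 were tested, gave 29 lower and 15 higher in shARNT (median log2 fold change -0.51), 13 lower and 21 higher in shBMAL1 (median 0.07), and 26 lower and 13 higher in the direct contrast. The shares lower and higher were 58% and 30% in shARNT, against 41.3% and 40.5% of all genes, 26% and 42% in shBMAL1, against 31.5% and 31.9%, and 52% and 26% in the direct contrast, against 41.1% and 40.1%. Among transporters, the fructose carrier SLC2A5 fell from 36.9 ± 0.883 CPM to 23.9 ± 0.595 in shBMAL1 and 1.35 ± 0.454 in shARNT (log2 fold change -4.76 ± 0.123 in shARNT). SLC2A10 was lower in shARNT (-1.75) and higher in shBMAL1 (0.52). SLC2A12 rose in shBMAL1, from 7.88 ± 0.967 to 48.3 ± 1.29 CPM (log2 fold change 2.62 ± 0.0905), and was 5.11 ± 0.675 CPM in shARNT. SLC2A6 (1.09) and the lactate and pyruvate carrier SLC16A7 (1.21) were higher in shARNT, and SLC2A11 (1.10) and SLC2A13 (-1.28) differed by more than 1 between the depletions.

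Enzymes around the main path moved as well. HKDC1, a hexokinase-like gene, was at 107 ± 6.86 CPM in shControl, 111 ± 1.91 in shBMAL1 and 235 ± 10.4 in shARNT (log2 fold change 1.14 ± 0.0476, adjusted p = 1.12e-14). TIGAR, listed as C12orf5, which lowers fructose 2,6-bisphosphate, rose in shARNT from 7.73 ± 0.925 to 51.0 ± 1.98 CPM (2.72 ± 0.0822). LDHD, which oxidises D-lactate, fell in shARNT (-2.11 ± 0.138), as did MPC2, a subunit of the mitochondrial pyruvate carrier (-1.18 ± 0.0412). PDP1, the phosphatase that opposes the PDK enzymes, rose in shBMAL1 (1.24 ± 0.0762). Glucose 6-phosphate is released as glucose by G6PC3 with the transporter SLC37A4, and both were lower in shARNT (-1.55 and -1.24).

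The glycogen genes outside the member list also included large falls in shARNT. PPP1R3C, which targets protein phosphatase 1 to glycogen, went from 24.6 ± 0.752 CPM to 14.1 ± 0.509 in shBMAL1 and 1.67 ± 0.0410 in shARNT (log2 fold change -3.88 ± 0.0978 in shARNT, adjusted p = 2.89e-18). The phosphorylase kinase subunits PHKA2 (-2.61) and PHKA1 (-1.62) fell there, and PHKB was 1.12 lower on the log2 scale in shARNT than in shBMAL1. STBD1, which tethers glycogen (-1.16), and the lysosomal glucosidase GAA (-1.19) were lower too. PGM3, on the wider list but not a glycogen gene, was also lower (-1.13).

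The pentose phosphate pathway, which takes glucose 6-phosphate away from glycolysis, was higher in shARNT for 6 of its 7 tested genes and lower for 1, with a median log2 fold change of 0.74, against 40.5% higher, 41.3% lower and a median of -0.01 over all genes. In shBMAL1, 5 were higher and 2 lower, with a median of 0.31, against 31.9%, 31.5% and a median of -0.001 over all genes. PGD, which yields NADPH, was at 361 ± 11.8 CPM in shControl, 452 ± 12.4 in shBMAL1 and 1149 ± 8.69 in shARNT, a log2 fold change of 1.67 ± 0.0361 in shARNT and 0.32 ± 0.0355 in shBMAL1 (adjusted p = 2.76e-19 and 1.61e-07). RPIA rose in shARNT but fell in shBMAL1 (8.10 ± 0.484, 4.26 ± 0.752 and 30.2 ± 1.06 CPM in shControl, shBMAL1 and shARNT). PGLS was the one gene lower in both (97.6 ± 0.895, 71.1 ± 2.87 and 73.3 ± 2.06 CPM).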

How the data were processed

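A498 cells carrying shControl, shBMAL1 or shARNT were profiled by stranded, paired-end mRNA sequencing, with 3 libraries per group. The authors deposited 1 table of expected counts per gene for all 9 libraries. Their methods name SeqMan NGen, ArrayStar and GRCh37, whereas the submitters' processing notes list STAR, DESeq2 and hg38, so the aligner and build are uncertain, and the treatment of multi-mapping reads and of strand is not given in the sources used here. Values of 0.05, which stand for no reads, were set to 0, values were rounded, and rows of the same name were summed (43 names), except 28 rows named as dates, which were kept apart.

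Counts were fitted in edgeR 4.0.16 (R 4.3.3) with TMM scaling, filterByExpr, all 9 libraries in 1 fit, glmQLFTest and a Benjamini-Hochberg adjusted p under 0.1 over 15551 genes, the false discovery rate of the study. glmTreat tested a 1.5-fold minimum. Alternatives were DESeq2 1.42.0, RLE factors, library size alone, no filter, halved counts, a replicate block, the 6 libraries compared and leaving out each library. Isozyme ratios are log2 ratios of counts with 0.5 added, tested by exact permutation. Levels per kilobase divide CPM by the union of GENCODE exons on GRCh37. The fit was tested on simulated data. Same-numbered libraries did not deviate together, with correlations of their deviations from -0.0410 to 0.0749, so the numbers were not taken to pair samples. Members and lists were chosen with earlier results of these data known. Members called with an absolute log2 fold change of at least 1, and genes of isozyme pairs, are given with their value in every library, and genes of the wider list are named where called with such a change and an average log2 CPM of at least 2. The values of 1 gene of the pentose phosphate list are not reported here.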

Additional observations from a re-analysis of the deposited data

Results flagged for a closer look

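Some members were called in opposite directions in the 2 depletions, which share their control libraries, and the direct contrast of shARNT against shBMAL1 was called for them as well. That log2 difference was -3.30 for LDHA, -2.33 for SLC2A3, -1.67 for PGM1, -1.12 for PGK1, -1.05 for GBE1, -0.30 for PFKM, 0.58 for PGAM1 and 0.89 for SLC16A3. For PFKM and PGK1 the difference of shARNT from shControl changed sign by library size alone, so for them the opposite directions depend on scaling, while the direct contrast kept its sign. The call of PGAM1 in shARNT was lost without shARNT library 3 (adjusted p = 0.102). None of these members passed the 1.5-fold minimum on both sides: LDHA, SLC2A3, PGM1 and GBE1 passed it in shARNT alone, PGK1 in shBMAL1 alone, and PFKM, PGAM1 and SLC16A3 in neither. In the direct contrast all but PFKM and PGAM1 passed it. Over all genes tested, 41.3% were lower and 40.5% higher in shARNT, and 31.5% and 31.9% in shBMAL1. The share of all genes called in opposite directions was not counted, so nothing particular to these members is read from their number. No group was large enough for a test of single outlying libraries.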

How the results depend on the processing

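Requiring a change of more than 1.5-fold moved the count of members higher in shARNT to 4, of members lower and higher in shBMAL1 to 4 each, and of members higher in the direct contrast to 4. Scaling by library size alone gave 15 members higher in shARNT against shControl and 15 against shBMAL1, with medians of -0.41 and -0.17, and a median of 0.055 in shBMAL1. Leaving out 1 library at a time gave medians from -0.66 to -0.63 in shARNT, from -0.014 to 0.024 in shBMAL1 and from -0.37 to -0.34 in the direct contrast. By library size alone the log2 differences of PFKM (0.077), PGK1 (0.0027), BPGM (0.16), ENO1 (0.20) and PDK3 (0.20) in shARNT, of PFKFB3 in shBMAL1 (0.021) and of TPI1 between the depletions (0.093) changed sign. PKM in shBMAL1 changed sign with RLE factors (-0.0050), halved counts (-0.0012), 6 libraries (-0.0037) and DESeq2 (-0.0050). With 1 library left out, values crossed 0 for PDK3 in shARNT (-0.096 to 0.014), for PFKFB3 (-0.064 to 0.023), ENO3 (-0.049 to 0.33), PKM (-0.017 to 0.013) and PYGB (-0.0036 to 0.026) in shBMAL1, and for HK2 (-0.031 to 0.11) and the ratio ENO3/ENO1 (-0.19 to 0.16) between the depletions. The cause was not tested.

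With the replicate number as a block, 23 members were lower and 11 higher in shARNT, 17 and 11 in shBMAL1 and 24 and 9 in the direct contrast. With the block, GPI (adjusted p = 0.0972) and PKM (0.0925) were called higher in shARNT, HK1 was called higher in shBMAL1 (0.0922) and PFKFB2 was no longer called there (0.101). Same-numbered libraries share only a number here. Of 99 shares of a step per kilobase, 81 moved by more than 1 SD with the longest transcript as the length, so shares are given with both where the leading gene changes.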
